A study of Homo sapiens with 6 samples.

Results

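Notch signalling carries messages between touching cells, and 10 of its genes were followed here: the receptor genes NOTCH1, NOTCH2 and NOTCH3, the ligand genes JAG1, JAG2 and DLL1, and the target genes HES1, HES4, HEY1 and NRARP. They were chosen by name from a list of receptors, ligands and targets, though with earlier results of these data known. They are 10 of the 50868 Ensembl genes in the deposited tables. All 10 were found by symbol. The libraries, 3 per group, came from cells labelled A549, a human lung adenocarcinoma line, that had received either a scramble siRNA (control; genotype label WT) or an siRNA against SF3B4, a subunit of the SF3b complex that recognises the branch point of introns. Replicates 2 and 3 of the SF3B4 siRNA group carry genotype labels naming SF3B5 and SF3B6 instead, although their titles and treatment labels name SF3B4, and the titles set the groups. The labels call replicates biological without naming separate cultures, so p-values measure the spread between these libraries, which may be technical. For siRNA time and dose, a value is not given in the sources used here.

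A receptor of the Notch family is cut by furin on its way to the cell surface. When a ligand of the Jagged or Delta family on a neighbouring cell pulls on it, an ADAM protease sheds its outer part and gamma-secretase releases the inner part. That fragment enters the nucleus, joins the DNA-binding protein RBPJ and a Mastermind-like coactivator, and switches on genes such as those of the HES and HEY repressors. In lung epithelium the pathway is known for its part in the choice between secretory and ciliated cell fates. Transcript levels do not report receptor cleavage, so none of the values below measures pathway activity directly.

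The values are FPKM, fragments counted relative to transcript length and library depth, so that genes can be set side by side. The smallest steps in the FPKM values of single-exon genes imply 17514669 to 18532246 fragments per library. For SF3B4 itself, control FPKM was 88.6, 92.0 and 93.8, and after its siRNA 22.03, 17.7 and 22.3, a mean of 22.6% of control. The deposited tables are named for another lung line, H1650. Of 10 genes typical of A549, 6 reached 1 FPKM in at least 1 library, while AKR1C1, AKR1C2, ALDH1A1 and ALDH3A1 stayed at or below 0.107 FPKM in all 6. NQO1, VIM, KRT8 and KRT18 reached 1 FPKM in every library. VIM was the lowest of them, with means of 3.46 FPKM in control and 1.54 FPKM in SF3B4 siRNA libraries. AKR1B10 and AKR1C3 reached 1 FPKM in no control library: AKR1B10 reached it only in the SF3B4 siRNA libraries and AKR1C3 only in SF3B4 siRNA replicate 2. All 5 epithelial markers reached 1 FPKM in at least 1 library, CLDN4 only in control replicates 1 and 3 (3.23 and 3.49 FPKM). Control and SF3B4 siRNA means were 2.49 and 0.350 FPKM for CLDN4, 41.2 and 75.0 FPKM for CDH1, and 22.4 and 33.9 FPKM for ELF3. For EPCAM they were 21.3 and 27.2 FPKM, and for KRT19 643 and 644 FPKM. The part of these differences in the results was not tested. Among lung lineage markers 0 of 5 reached 1 FPKM (NKX2-1 at most 0.0083 FPKM, with SFTPB, SFTPC and SCGB1A1 listed at 0). Of other cell types only CD68 (1 of 5 leukocyte genes) and COL1A1 (1 of 5 fibroblast genes) did, with 0 of 4 endothelial genes. The summed fibroblast markers were 2.13 to 2.24 FPKM in control and 2.88 to 3.23 FPKM in SF3B4 siRNA libraries, and the part of this in the results was not tested. Of the 5, COL1A1 alone was higher in all 3 SF3B4 siRNA libraries than in any control library (means of 1.33 and 2.27 FPKM). COL3A1 had means of 0.801 and 0.689 FPKM, and COL1A2, LUM and PDGFRB stayed at or below 0.063 FPKM.

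Of the 10 Notch genes, 7 had at least 1 FPKM in at least 3 libraries and were tested. NOTCH1, NOTCH3, JAG2 and HES1 fell, none rose, and NOTCH2, JAG1 and HES4 did not pass (limma, adjusted p under 0.05 over 9685 genes). Falls were thus 4 of 7, where 18.1% of all tested genes fell and 16.0% rose, 34.1% in all. Groups did not overlap for 5 of the 7, against 49.5% of all tested genes. The median log2 fold change of the 7 was -0.32, beside -0.0035 over all tested genes. DLL1, NRARP and HEY1 were too low to test. In RNA from a whole culture, fewer cells that express a gene and less of its RNA per cell cannot be told apart.

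**Figure D1:**
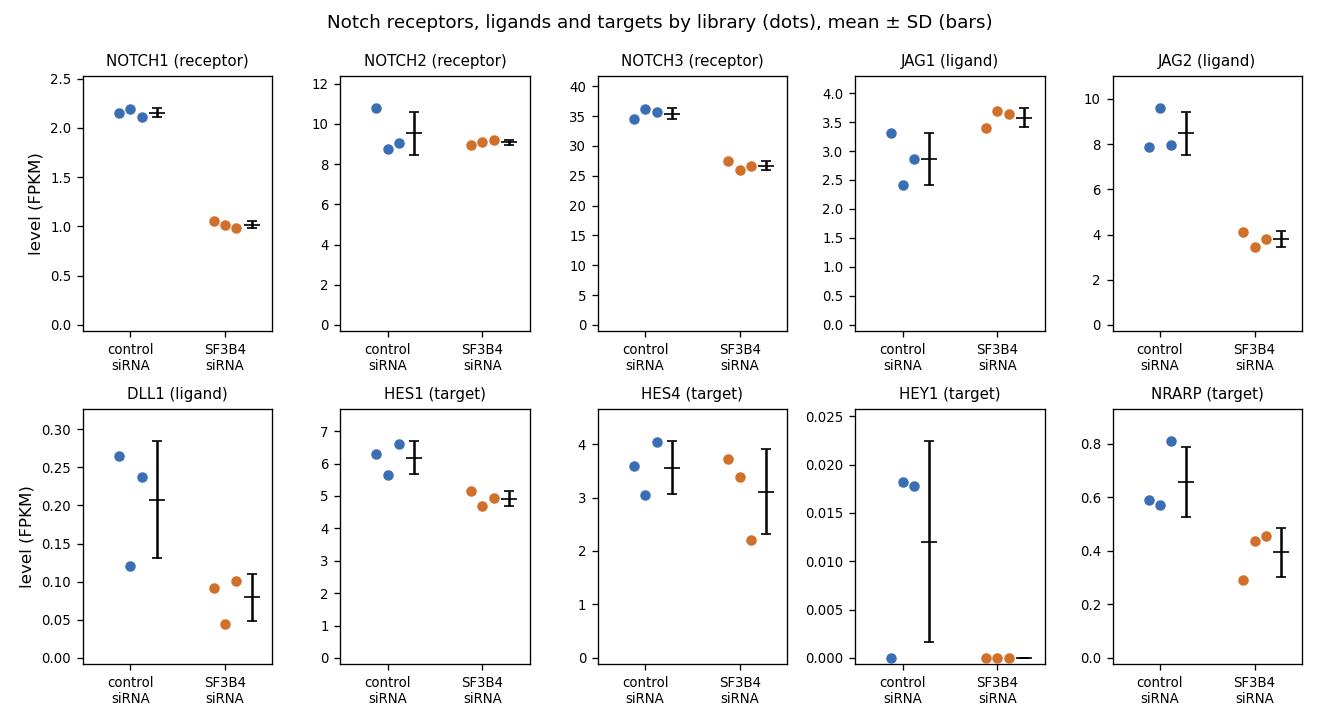
FPKM (vertical axes, each from about 0) of the 10 Notch genes in the 3 control and 3 SF3B4 siRNA libraries; dots are libraries, black bars the mean and SD of each group. The groups stand apart for NOTCH1, NOTCH3 and JAG2, while those of NOTCH2 and HES4 overlap, and HEY1 lies near 0 throughout.

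NOTCH3 was the leading receptor transcript and the highest of all 10 genes. NOTCH3 (ENSG00000074181, GRCh38 chromosome 19, 15159038 to 15200981, minus strand) encodes a receptor best known from vascular smooth muscle and also found in epithelial tumours. It was at 34.5, 36.2 and 35.6 FPKM in control and at 27.5, 25.9 and 26.6 FPKM in SF3B4 siRNA libraries. Every SF3B4 siRNA library was below every control library. The mean fell from 35.4 ± 0.863 to 26.7 ± 0.803 FPKM (SD, n = 3 each), 75.4% of control. The log2 fold change was -0.41 with an SE of 0.06 (limma adjusted p = 0.0023). About 4409 to 6079 fragments per library lay behind these values. The call was lost when a change of at least 1.2-fold was required (adjusted p = 0.138; range over 16 alternatives 0.00163 to 0.138).

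NOTCH1, the founding receptor of the family in mammals, was the lowest of the 3 receptor genes and fell by the largest factor among them. The gene (ENSG00000148400, chromosome 9, 136494433 to 136545786, minus strand) was at 2.15, 2.196 and 2.11 FPKM in control and at 1.05, 1.009 and 0.986 FPKM after SF3B4 siRNA. The libraries of each group lay close together and the groups were far apart. The mean fell from 2.15 ± 0.0454 to 1.02 ± 0.0347 FPKM, to 47.3% of control (log2 fold change -1.01 ± 0.11, limma adjusted p = 0.00056). It ranked 289 of 9685 genes by size of fall. The lower values rested on about 190 to 192 fragments, for which counting error alone gives a coefficient of variation of up to 7.26%. The call held in 15 of 15 alternatives that kept the gene (adjusted p 0.000524 to 0.00475).

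NOTCH2 (ENSG00000134250, chromosome 1, 119911553 to 120069626, minus strand) encodes the receptor for which human-specific partial copies exist. It was at 10.8, 8.78 and 9.05 FPKM in control and 8.95, 9.10 and 9.20 FPKM in SF3B4 siRNA libraries. The SF3B4 siRNA values lay inside the control range. The log2 fold change was -0.06, with a 95% interval of -0.28 to 0.16 (limma adjusted p = 0.65), and the sign turned without control replicate 1, the highest library (0.03, adjusted p = 0.785). The partial copy NOTCH2NLA was listed at a mean of 0.909 FPKM and NOTCH2P1 at 0, and how shared reads were counted is not stated in any label, so the NOTCH2 value is uncertain.

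The falls of NOTCH1 and NOTCH3 left the order of the receptors as it was. NOTCH3 made up 72.7% to 76.7% of the summed FPKM of the 3 receptor genes in control libraries and 71.9% to 73.3% in SF3B4 siRNA libraries, ranges that overlap. The share of NOTCH1 was 4.50% to 4.66% in control and 2.68% to 2.81% in SF3B4 siRNA libraries. The sum itself was 47.1 ± 0.296 FPKM in control and 36.8 ± 0.749 FPKM after SF3B4 siRNA. These shares and sums are descriptions and were not tested.

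The 3 ligand genes did not give the same call, and the difference between their changes was not tested. JAG2 fell more than any other tested Notch gene, JAG1 stood higher in every SF3B4 siRNA library without passing the test, and DLL1 was near the limit of detection. Jagged proteins are membrane-bound ligands with a cysteine-rich region that Delta-like ligands lack.

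JAG2 (ENSG00000184916, chromosome 14, 105140981 to 105168824, minus strand) was at 7.89, 9.58 and 7.97 FPKM in control and at 4.13, 3.44 and 3.81 FPKM in SF3B4 siRNA libraries. The highest SF3B4 siRNA library was well below the lowest control library. The mean fell from 8.48 ± 0.953 to 3.79 ± 0.348 FPKM, 44.8% of control, with a log2 fold change of -1.14 ± 0.11 (limma adjusted p = 0.00047), rank 197 of 9685 by size of fall. The call held in 16 of 16 alternatives (adjusted p 0.000339 to 0.00358). About 398 to 1088 fragments per library lay behind it. Its exons overlap those of AL512356.1 on the same strand over 7.33% of their length, a gene listed at no more than 0.515 FPKM.

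JAG1 (ENSG00000101384, chromosome 20, 10637684 to 10673999, minus strand), the ligand gene affected in Alagille syndrome, was at 3.31, 2.41 and 2.87 FPKM in control and at 3.40, 3.69 and 3.64 FPKM in SF3B4 siRNA libraries. The groups touched closely but did not overlap. The means were 2.86 ± 0.448 and 3.58 ± 0.157 FPKM, a log2 fold change of 0.32 with a 95% interval of 0.03 to 0.62 that is not corrected for the number of genes (limma adjusted p = 0.089). It passed the test with quantile normalization (adjusted p = 0.0447) and without control replicate 1 (log2 fold change 0.43, adjusted p = 0.0328). Without control replicate 2, the lowest library, the log2 fold change was 0.21 (adjusted p = 0.226). It passed in none of the other alternatives that kept the gene (range over 15 alternatives 0.0328 to 0.847).

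The balance of the Jagged genes can be read as a ratio. JAG2 FPKM divided by JAG1 FPKM was 2.38, 3.97 and 2.78 in control and 1.22, 0.931 and 1.05 after SF3B4 siRNA. The lowest control ratio exceeded the highest SF3B4 siRNA ratio. The sum of the 3 ligand genes was 11.1 to 12.1 FPKM in control and 7.17 to 7.62 FPKM in SF3B4 siRNA libraries. Both are descriptions of genes already given, with no test of their own.

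**Figure D2:**
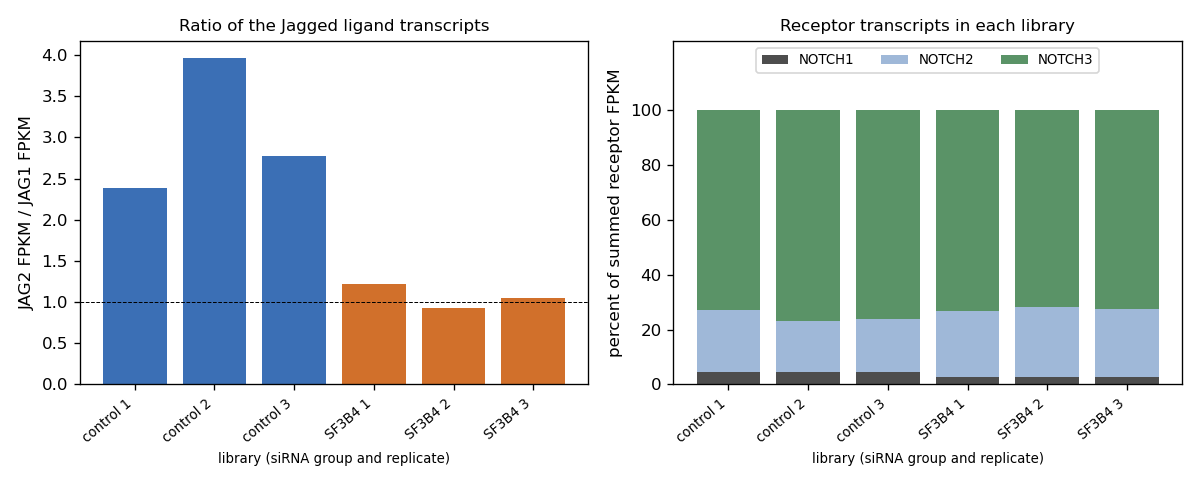
Left, FPKM of JAG2 divided by that of JAG1 in each library, with a dashed line at equal levels; right, percent of the summed FPKM of NOTCH1, NOTCH2 and NOTCH3 held by each. The ratio is 2.38 to 3.97 in control and 0.931 to 1.22 in SF3B4 siRNA libraries, while NOTCH3 holds the largest share in all 6.

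DLL1 (ENSG00000198719, chromosome 6, 170282206 to 170306565, minus strand), a Delta-like ligand gene, was at 0.265, 0.121 and 0.237 FPKM in control and at 0.0921, 0.0445 and 0.102 FPKM in SF3B4 siRNA libraries. All SF3B4 siRNA libraries were lower, but the values rest on about 7 to 16 and about 3 to 6 fragments. By an exact two-sided permutation test p was 0.1, the smallest that 3 against 3 libraries allow. Fitted without the filter on low values, over 24450 genes, the log2 fold change was -0.76 ± 0.28 (SE, limma adjusted p = 0.15), so a difference was not established at this depth.

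HES1 and HES4 encode basic helix-loop-helix repressors and are textbook targets of RBPJ with the cleaved receptor. Before the RefSeq start of both genes lies the same arrangement of letters, shown here because paired RBPJ sites are known from Notch-responsive promoters. It is GTGGGAA, which holds the RBPJ core TGGGAA, followed after 16 bases by the reverse complement of GTGTGAA. Sequences are from RefSeq (GRCh38.p14), 5′ to 3′ on the strand of the gene, with the paired elements in capitals. The stretch begins 85 bases before the annotated start of HES1 and 77 bases before that of HES4, and 21 of its 30 bases are the same in both.
HES1: GTGGGAAagaaagtttgggaagtTTCACAC
HES4: GTGGGAAagaatgcggagccgggTTCACAC

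Of 35116 promoter windows of 250 bases, 20.9% held TGGGAA on either strand, 5.43% held GTGGGAA and 2.48% held GTGTGAA. The pair at a spacing of 16 bases occurred in 2 windows, those of HES1 and HES4. The spacing was read from these windows before it was counted, so the count describes them and is no test. Of the 10 Notch genes, 8 were searched, and DLL1 and HEY1 were not. The windows of NOTCH1, NOTCH2, NOTCH3, JAG1, JAG2 and NRARP held no TGGGAA on either strand, which says only that these letters are not in these 250 bases. The windows follow RefSeq starts and do not all adjoin the GENCODE gene coordinates. That of NOTCH1 begins at 136546049, beyond the gene end at 136545786, and those of HES1, JAG2 and HES4 reach into the gene. A match is a description, not a bound site. The whole windows of HES1 (chr3:194135898-194136147, plus strand) and HES4 (chr1:1000098-1000347, minus strand) follow, with RBPJ cores and both elements of the pair in capitals.
HES1: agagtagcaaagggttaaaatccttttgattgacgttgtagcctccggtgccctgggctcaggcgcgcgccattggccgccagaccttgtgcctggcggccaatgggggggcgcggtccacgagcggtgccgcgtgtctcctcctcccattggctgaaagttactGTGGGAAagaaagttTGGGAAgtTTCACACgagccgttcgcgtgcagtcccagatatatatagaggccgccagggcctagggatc
HES4: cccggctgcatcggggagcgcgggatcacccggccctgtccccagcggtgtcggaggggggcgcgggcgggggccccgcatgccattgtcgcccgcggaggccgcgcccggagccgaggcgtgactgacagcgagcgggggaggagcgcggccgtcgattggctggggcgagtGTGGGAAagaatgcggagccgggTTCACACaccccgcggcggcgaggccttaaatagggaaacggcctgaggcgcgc

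**Figure D3:**
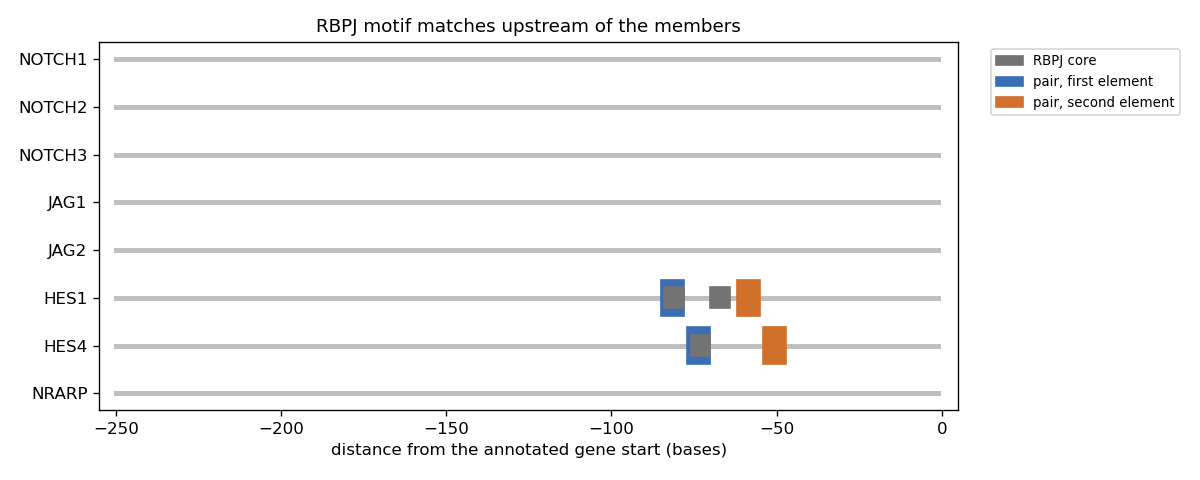
Matches to the RBPJ core (grey) and to the paired elements (blue and orange) in the 250 bases before the RefSeq start of the 8 searched Notch genes. The horizontal axis is the distance from that start in bases. The pair is seen before HES1 and HES4 and in none of the other 6 windows, and HES1 holds 2 cores.

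With this promoter feature in common, HES1 and HES4 did not give the same call. HES1 (ENSG00000114315, chromosome 3, 194136145 to 194138732, plus strand) was at 6.29, 5.64 and 6.62 FPKM in control and at 5.17, 4.68 and 4.92 FPKM in SF3B4 siRNA libraries. The groups did not overlap, though the gap between the nearest libraries was small. The mean fell from 6.18 ± 0.499 to 4.92 ± 0.246 FPKM, 79.6% of control, a log2 fold change of -0.32 ± 0.09 (limma adjusted p = 0.034). The call was lost in 9 of 16 alternatives (adjusted p over all 0.0298 to 0.764): without the filter (0.0733), with quantile normalization (0.0528), with the replicate block (0.0554), with a minimum change of 1.2-fold (0.764), and without any 1 library other than control replicate 2 (0.0593 to 0.113). About 174 to 248 fragments lay behind each value.

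HES4 (ENSG00000188290, chromosome 1, 998962 to 1000172, minus strand), a HES gene that mice lack, was at 3.59, 3.05 and 4.03 FPKM in control and at 3.72, 3.39 and 2.21 FPKM in SF3B4 siRNA libraries. The groups overlapped, and SF3B4 siRNA replicate 3 was the lowest of the 6. The log2 fold change was -0.21 with a 95% interval of -0.68 to 0.26 (limma adjusted p = 0.45). Without SF3B4 siRNA replicate 3 the sign turned (0.01, adjusted p = 0.975). The values rest on about 46 to 82 fragments. The difference between the changes of HES1 and HES4 was not tested.

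NRARP encodes a small ankyrin-repeat protein that binds the receptor fragment with RBPJ and limits the signal, a feedback inhibitor. The gene (ENSG00000198435, chromosome 9, 137300482 to 137302251, minus strand) lies 754695 bases from NOTCH1. It was at 0.588, 0.573 and 0.809 FPKM in control and at 0.290, 0.437 and 0.457 FPKM in SF3B4 siRNA libraries, or 19, 18 and 26 against 9, 14 and 15 fragments. Every SF3B4 siRNA library was below every control library, with a mean at 60.1% of control. By an exact two-sided permutation test p was 0.1, the smallest possible here, and without the filter the log2 fold change was -0.62 ± 0.21 (SE, limma adjusted p = 0.13).

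HEY1 (ENSG00000164683), a repressor gene of the HEY family, was listed at 0, 0.0182 and 0.0178 FPKM in control libraries and at 0 in all 3 SF3B4 siRNA libraries. The positive values stand for about 1 fragment each, so no fold is given, and HEY1 was at the limit of detection in both groups. By an exact two-sided permutation test p was 0.4.

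In control libraries the order of the 10 genes by FPKM was NOTCH3, NOTCH2, JAG2, HES1, HES4, JAG1, NOTCH1, NRARP, DLL1 and HEY1. The ranges of NOTCH2 and JAG2 overlapped, as did those of HES4 and JAG1, while all other neighbours were apart. After SF3B4 siRNA, JAG2 stood directly behind HES1. There the ranges of JAG2 (3.44 to 4.13 FPKM), JAG1 (3.40 to 3.69 FPKM) and HES4 (2.21 to 3.72 FPKM) overlapped from each to the next, and the other neighbours did not.

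Beyond these 10, 63 other genes of the pathway were listed by function, of which 41 were tested. Of these, 7 rose and 7 fell, 34.1% called as among all tested genes, with a median log2 fold change of -0.03. They are given by functional group. Pathway genes named below that did not pass were chosen after their values were seen.

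At the step of receptor shedding, ADAM17, which encodes a sheddase of many membrane proteins, was at 3.98, 3.18 and 3.53 FPKM in control and 1.74, 1.98 and 2.17 FPKM in SF3B4 siRNA libraries. It fell to 55.1% of control, with no overlap (log2 fold change -0.83 ± 0.13, limma adjusted p = 0.0026). Its exons overlap those of IAH1, a gene of the opposite strand at 3.11 to 4.16 FPKM, in 12.3% of their bases, which makes the ADAM17 value uncertain. ADAM10, the protease tied most closely to ligand-driven Notch cleavage, was at 1.65 and 1.67 FPKM on average and FURIN at 57.9 and 57.0 FPKM; neither passed (adjusted p = 0.95 and 0.91).

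Of 6 gamma-secretase genes, 2 rose and 0 fell. NCSTN, which encodes nicastrin, was at 20.03, 21.7 and 18.8 FPKM in control and 30.5, 31.6 and 28.05 FPKM in SF3B4 siRNA libraries (log2 fold change 0.57 ± 0.08, limma adjusted p = 0.0018). PSEN2, a catalytic presenilin gene, rose from 3.22 ± 0.274 to 4.45 ± 0.461 FPKM (adjusted p = 0.018), a call lost in 4 of 15 alternatives (range 0.0112 to 0.291), among them without control replicate 3 (0.063) and without SF3B4 siRNA replicate 1 (0.0625). APH1A, APH1B and PSENEN did not pass.

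Enzymes that add sugars to the receptors went in opposite directions. LFNG, the Fringe enzyme that shifts receptor preference between Delta-like and Jagged ligands, was at 13.2, 17.4 and 15.2 FPKM in control and 10.99, 8.72 and 10.1 FPKM in SF3B4 siRNA libraries. It fell to 65.0% of control (log2 fold change -0.61 ± 0.13, limma adjusted p = 0.0083). POFUT1, which places the fucose that Fringe extends, rose from 46.3 ± 1.07 to 60.7 ± 1.43 FPKM (adjusted p = 0.0021). Both calls were lost with a minimum change of 1.2-fold (adjusted p = 0.0878 for LFNG and 0.164 for POFUT1). RFNG did not pass, and MFNG and POGLUT1 were too low to test.

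Of 9 tested genes for ligand or receptor endocytosis and ubiquitin ligases, 1 rose. NEURL4, a Neuralized family gene, went from 3.80 ± 0.138 to 4.66 ± 0.155 FPKM (limma adjusted p = 0.035), and the call was lost in 9 of 15 alternatives, among them without any 1 of the 6 libraries (adjusted p over all 0.0237 to 0.939). NUMB, which encodes an inhibitor of Notch, was at 1.02 FPKM in both groups. DTX4, a Deltex ubiquitin ligase gene named after its values were seen, was at 11.4, 28.1 and 26.5 FPKM in control and 38.5, 41.9 and 39.9 FPKM in SF3B4 siRNA libraries. Control replicate 1 stood apart from the other two control libraries. With it the log2 fold change was 0.97 ± 0.35 (adjusted p = 0.076), and without it 0.55 (adjusted p = 0.0032; range over 16 alternatives 0.0032 to 0.23).

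In the nucleus, 2 of 16 tested genes rose and 4 fell. The acetyltransferase genes KAT2A and KAT2B, close paralogs that both serve as coactivators, moved apart. KAT2A was at 12.01, 12.8 and 14.2 FPKM in control and 5.03, 4.41 and 7.04 FPKM in SF3B4 siRNA libraries (log2 fold change -1.25 ± 0.17, limma adjusted p = 0.0016). KAT2B was at 2.06, 1.595 and 1.92 FPKM in control and 2.80, 3.42 and 2.87 FPKM in SF3B4 siRNA libraries (log2 fold change 0.68 ± 0.13, adjusted p = 0.0070), a call lost with a minimum change of 1.2-fold (0.0609). Neither gene's groups overlapped. KAT2A shares 10.8% of its exons with AC099811.2, listed at 14.6 to 19.97 FPKM on the same strand, and is uncertain for that reason.

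HDAC1, a deacetylase gene of co-repressor complexes, rose from 39.3 ± 2.08 to 57.6 ± 2.25 FPKM (limma adjusted p = 0.00097), a call that held in 16 of 16 alternatives. SPEN, the gene of an RBPJ co-repressor, fell from 3.59 ± 0.590 to 2.39 ± 0.398 FPKM (adjusted p = 0.028), lost in 7 of 15 alternatives (range 0.0205 to 0.222), including without control replicate 1 (0.0724) or 3 (0.0532) and without SF3B4 siRNA replicate 1 (0.0784) or 2 (0.0718). EP300, an acetyltransferase coactivator gene named after its values were seen, fell from 6.19 ± 0.476 to 4.80 ± 0.214 FPKM (limma adjusted p = 0.021). It lost its call in 5 of 16 alternatives, among them without control replicate 3 (0.0542) and without SF3B4 siRNA replicate 1 (0.0747) or 3 (0.0544). RBPJ itself was too low to test, at 0.454, 0.521 and 0.442 FPKM in control and 0.251, 0.276 and 0.488 FPKM in SF3B4 siRNA libraries. These groups overlap. The related copies RBPJP2, RBPJP5, RBPJP6 and RBPJP7 were listed at 0. How shared reads were counted is not stated in any label, so the RBPJ value is uncertain.

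Of the other ligands, DLK2, a non-canonical Delta-like gene, rose from 4.60 ± 0.599 to 7.94 ± 0.124 FPKM with no overlap (limma adjusted p = 0.0018), and DLL3 did not pass (2.90 and 2.47 FPKM). All 6 other HES and HEY genes were too low to test. HES6 was at 0.472, 0.593 and 0.678 FPKM in control and 0.328, 0.174 and 0.332 FPKM in SF3B4 siRNA libraries, while HEYL was at 0.898, 0.923 and 1.02 FPKM and 0.718, 0.799 and 0.884 FPKM. HES2 was at 0.208, 0.206 and 0.194 FPKM and 0.0149, 0.152 and 0.190 FPKM. These 3 of 6 genes were lower in all SF3B4 siRNA libraries, where groups did not overlap for 49.5% of all tested genes. Each had an exact two-sided permutation p of 0.1, the smallest possible here. HES2 groups were apart only by 0.194 against 0.190 FPKM. HES2 rested on about 1 to 20 fragments per library and HES6 on about 6 to 25. HES7 (means of 0.534 and 0.320 FPKM), HES5 (0.0281 and 0.0846 FPKM) and HEY2 (0.0134 and 0.0139 FPKM) had groups that overlapped. Of other textbook targets, CCND1, the cyclin D1 gene, fell to 35.9% of control (limma adjusted p = 0.00027) and SOX9 did not pass (9.46 and 9.24 FPKM).

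**Figure D4:**
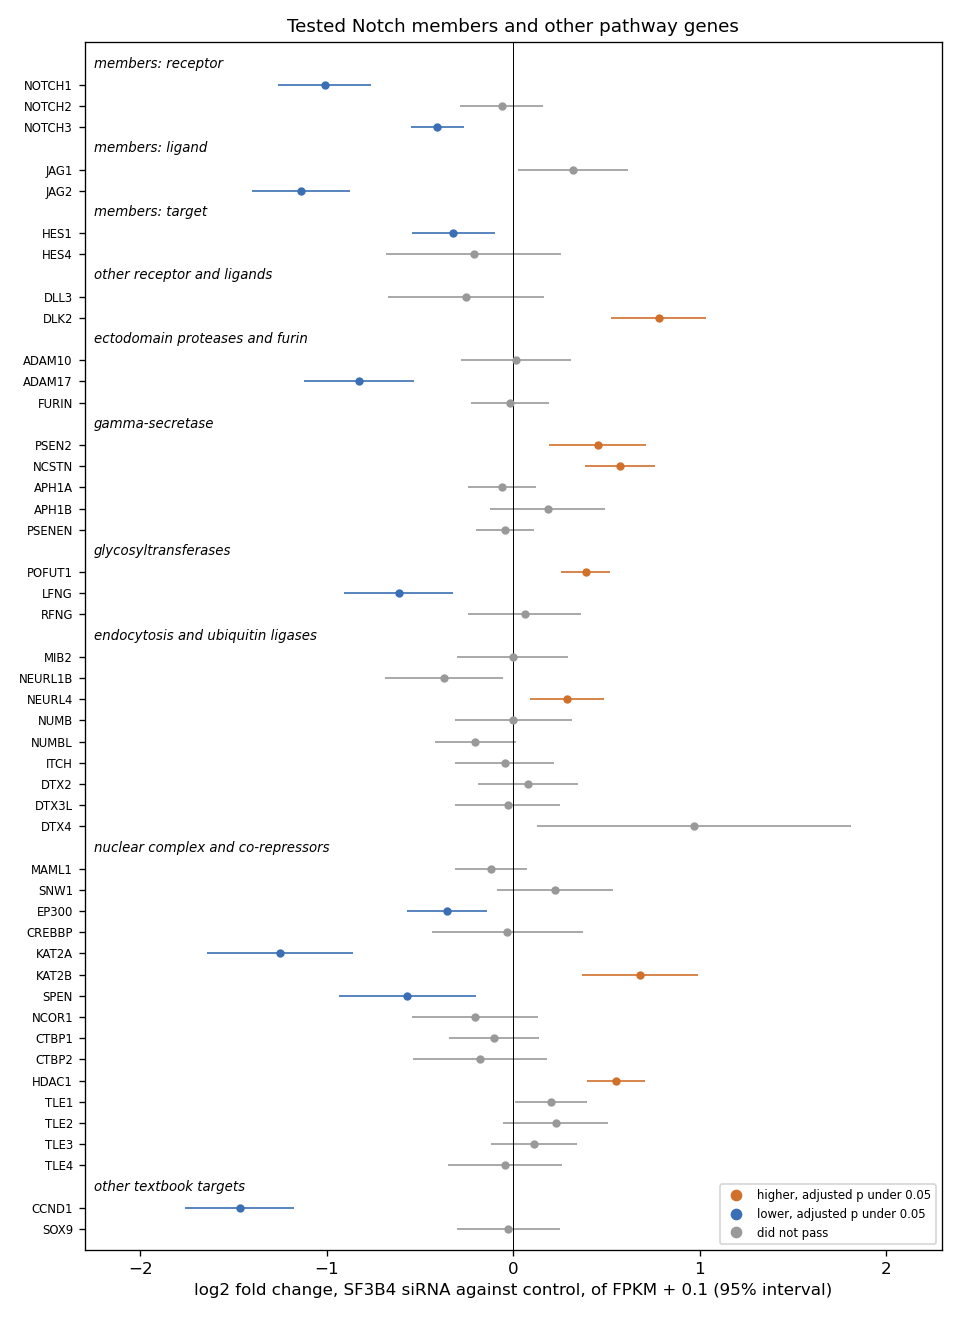
Log2 fold change (horizontal axis, SF3B4 siRNA against control, on the log2(FPKM + 0.1) scale) with its 95% interval for the 7 tested Notch genes and other tested pathway genes by function; blue fell, orange rose, grey did not pass. JAG2 and NOTCH1 lie near -1, and other pathway genes lie on both sides of 0.

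The short sequences, GCCTTCA and CCTTCAA, were picked in an earlier look at these data, so what follows is a description. Of 8387 tested genes with an annotated 3' UTR, 21.1% held either, as did 36.5% of those that fell. Genes that held one had a median log2 fold change of -0.17, beside 0.02 in the rest. Among the 4 fallen Notch genes, 1 held one, JAG2, and NOTCH1, NOTCH3 and HES1 held none. NOTCH2, which did not pass, and NRARP, not tested, also held one. Among the other pathway genes, 3 of 7 that fell (ADAM17 and KAT2A among them) and 1 of 7 that rose (POFUT1) held one. So did 6 of 27 that did not pass and 4 of 22 that were not tested. The length of the 3' UTRs was not taken into account. The sites of JAG2 (chr14:105141889-105141895), NRARP (chr9:137301161-137301167) and ADAM17 (chr2:9489719-9489725) are shown with their neighbouring bases, from GENCODE 29 transcripts (GRCh38), all on the minus strand and written 5′ to 3′ along the transcript, with the 7 letters in capitals. The part of these letters in any gene's change was not tested.
JAG2: tcgtgacaagtGCCTTCAcacagacccct
NRARP: gctccgccgccGCCTTCAggacccgcccg
ADAM17: tttttttttttGCCTTCAactaaaaacaa

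Genes with the most similar pattern over the 6 libraries were sought among 4735 tested genes with a mean of at least 5 FPKM, by the root mean square difference of log2 values centred on each gene's mean. For NOTCH1 these were ALPP, NADK and DCAKD (differences of 0.044, 0.045 and 0.045). ALPP went from 95.4 to 49.5 FPKM, NADK from 16.7 to 8.29 FPKM and DCAKD from 9.21 to 4.72 FPKM. For JAG1 they were EPCAM, TOP1 and MRPL15 (0.033, 0.046 and 0.050), with EPCAM at 21.3 and 27.2 FPKM. For HES1 they were POLR1E, RPL15 and UQCRC1 (0.031, 0.044 and 0.045), with POLR1E at 9.44 and 7.67 FPKM. The 6 libraries form 2 groups, so the measure includes the difference between groups.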

How the data were processed

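Values are FPKM as the authors deposited them, per the file headers, for 50868 Ensembl genes in 6 libraries. Per the submitters' processing notes, HISAT2 2.0.4, StringTie 1.3.0 and GRCh38 were used, with no roles stated; for annotation and strand setting a value is not given in the sources used here. Symbols matched 49659 identifiers and GENCODE 29 matched 50111. The 9685 genes that reached FPKM 1 in 3 or more libraries were tested with limma 3.58.1 in R 4.3.3 on log2(FPKM + 0.1), with the trend and robust options, as a two-sided test, Benjamini-Hochberg adjusted over all tested genes, threshold 0.05. Fold changes on that scale understate those of low genes. Fragments were estimated from FPKM, GENCODE exonic length and the step of single-exon genes (94.9% to 95.1% of low values within 0.02 of a whole number), so they are approximate and cover counting error only. That share is for single-exon genes alone. For other genes the length behind the FPKM may differ from the one used here, which would scale their fragment numbers. Of the 10 Notch genes, 3 fell below the filter and were compared by an exact permutation test. The fit was tested on simulated data, where it recovered 69 of 83 changes of 1.5-fold, 60 of 60 of 2-fold and 57 of 57 of 4-fold. Of its 201 calls there, 15 were false. Named were all 10 Notch genes and, per functional group, up to 4 pathway genes with the largest change past the threshold; other pathway genes were added after their values were seen. The genes and lists were chosen with earlier results of these data known. Alternatives were other pseudocounts, filters, scalings and moderation, a replicate block, a minimum fold change and leaving out each library. Some pathway genes are included in the counts by group but are not reported here by name.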

Additional observations from a re-analysis of the deposited data

How the results depend on the processing

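NOTCH1 and JAG2 kept their call under every alternative that kept them, and HES1 was the Notch gene whose call was lost most often. Direction turned for NOTCH2 without control replicate 1 (log2 fold change -0.119 to 0.027 without any 1 library) and for HES4 without SF3B4 siRNA replicate 3 (-0.356 to 0.0071), neither called. With a minimum change of 1.2-fold, 420 genes were higher and 693 lower, 2 Notch genes were lower, and 3 other pathway genes were higher and 3 lower. At a mean FPKM of at least 5, where fewer genes are tested, 1027 genes were higher and 940 lower, and 4 other pathway genes were higher. With quantile normalization 1 Notch gene, JAG1, was higher; the cause was not tested. Without any 1 library, genes higher were 1056 to 1485, genes lower 1238 to 1484, Notch genes higher 0 to 1 and lower 3 to 4, and other pathway genes higher 5 to 7 and lower 5 to 7. Same-numbered replicates did not deviate together (correlations -0.080, 0.024 and -0.12), so the numbers were not taken as pairs. Correlations of differently numbered replicates were -0.065 to 0.144, the highest for control replicate 1 with SF3B4 siRNA replicate 3. With the replicate block 1290 genes were higher and 1537 lower, 3 Notch genes were lower and 0 higher, and 6 other pathway genes were higher and 5 lower. Scalings moved the median log2 fold change of all tested genes by at most 0.032. Depth limits DLL1, NRARP and HEY1, with at most 26 fragments per library.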
